A study of Mus musculus with 6 samples.

Results

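A set of coagulation and plasminogen genes known in endothelium was followed in 6 bulk RNA libraries of cultured mouse lung endothelial cells. Bulk RNA does not tell which cells made a transcript. The set holds 9 genes, taken by symbol from 30055 in the deposited count table: F3, Tfpi, Vwf, Thbd, Procr, Pros1, Plat, Plau and Plaur. All 9 were found and all 9 were among the 15035 genes tested. The cells came from the lungs of 3-week-old C57BL6 mice labelled female that lack Ch25h, the gene of cholesterol 25-hydroxylase, so every group carries that deletion and no wild-type cells were analysed here. The vehicle group received carrier alone, named as PBS in the series text. The TEV group received extracellular vesicles of MC38 mouse colorectal tumour cells at 20 µg per ml for 12 h. The TEV plus reserpine group was pretreated with 10 µM reserpine, an inhibitor of vesicular monoamine transport, for 8 h before the same vesicles. Each group held 2 libraries. No library with reserpine alone was analysed here. The growth medium contained 15% serum, 0.1 mg per ml endothelial growth factor and 0.5 mg per ml heparin, itself an anticoagulant, in all groups.

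Healthy endothelium keeps blood fluid. Tissue factor (F3) starts clotting when it binds factor VII, and tissue factor pathway inhibitor (Tfpi) blocks that complex. Thrombomodulin (Thbd) turns thrombin into an activator of protein C, the endothelial protein C receptor (Procr) presents protein C to it, and protein S (Pros1) is the cofactor of activated protein C. Von Willebrand factor (Vwf) is stored in Weibel-Palade bodies, binds platelets and carries factor VIII. Clots are dissolved by plasmin, which tissue-type (Plat) and urokinase-type (Plau) plasminogen activators cut from plasminogen, and the urokinase receptor (Plaur) holds urokinase at the cell surface.

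RefSeq promoters (GRCm38.p6, 250 bases before to 50 after a start) were at hand for 5 members, namely F3, Procr, Plaur, Pros1 and Tfpi, the last with 2 starts. Vwf, Thbd, Plat and Plau had no entry. The 3 that hold the AP-1 motif TGANTCA are printed because their genes moved differently below: F3 fell with vesicles, whereas Procr and Plaur rose. Capitals mark each AP-1 match, searched on both strands. The windows are chr3:121723287-121723586 on the plus strand for F3, chr2:155750967-155751266 on the plus strand for Procr and chr7:24462233-24462532 on the plus strand for Plaur.
F3: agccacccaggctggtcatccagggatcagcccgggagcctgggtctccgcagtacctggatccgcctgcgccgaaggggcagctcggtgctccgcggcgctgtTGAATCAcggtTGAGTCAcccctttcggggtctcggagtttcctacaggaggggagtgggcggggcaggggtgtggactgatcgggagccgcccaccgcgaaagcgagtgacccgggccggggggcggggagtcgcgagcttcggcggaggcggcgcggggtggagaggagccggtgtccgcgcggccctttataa
Procr: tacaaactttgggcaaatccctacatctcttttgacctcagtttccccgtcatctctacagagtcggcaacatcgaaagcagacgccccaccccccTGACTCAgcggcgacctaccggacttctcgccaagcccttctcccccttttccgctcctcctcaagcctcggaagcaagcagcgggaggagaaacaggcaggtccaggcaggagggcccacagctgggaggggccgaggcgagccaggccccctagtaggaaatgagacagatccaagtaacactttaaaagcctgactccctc
Plaur: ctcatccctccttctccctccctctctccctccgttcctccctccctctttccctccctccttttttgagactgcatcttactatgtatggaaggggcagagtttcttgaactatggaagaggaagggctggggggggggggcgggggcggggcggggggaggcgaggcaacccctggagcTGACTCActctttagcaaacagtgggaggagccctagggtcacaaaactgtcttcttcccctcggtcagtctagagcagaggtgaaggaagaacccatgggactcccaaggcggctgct
F3 had 2 matches, 146 and 135 bases before its start, and Procr and Plaur had 1 each, 154 and 69 bases before theirs. The motif was in 7.81% of the 32851 promoter windows of the same length. The SP1 motif GGGCGG, found in 35.7% of all windows, was in the windows of F3, Plaur, Pros1 and Tfpi, and overlapping copies were counted. The KLF motif CCACCC (31.5% of windows) was in those of F3, Procr and Pros1, and the GATA motif AGATAA (11.2%) in 1 of the Tfpi windows. No match of the ETS motif CCGGAA (14.9%) or the NF-kappaB motif (0.411%) was in any of the 6 member windows. A match is a run of letters and not a measured site.

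Library depth ran from 22270657 to 81225627 estimated counts, and 1 count was worth 0.0127 to 0.0447 CPM, the counts scaled to the library total and by TMM factors. Members were therefore measured on at least 116 estimated counts in every library. Reads of Ch25h were few, at 9.09 to 40.8 estimated counts a library, and since no source used here states which part was deleted they do not check the genotype. All 10 endothelial markers were present, with summed levels of 4482 and 4445 CPM with vehicle, 8364 and 8244 with TEV and 8847 and 8791 with TEV plus reserpine. With TEV 7 of them were higher and 3 lower. Emcn (mean 360.2 to 2582 CPM) and Pecam1 (741 to 1977 CPM) made up most of the rise of the sum. The 3 that fell, named after their values were seen, were Kdr (343 and 306 to 65.3 and 105.3 CPM), Cldn5 (221 and 219.9 to 20.2 and 37.3 CPM) and Tek (104 and 103.6 to 82.8 and 85.3 CPM), and all 3 were higher with TEV plus reserpine than with TEV. Markers of lymphatic endothelium were present too, and their sum stayed between 1054 and 1264 CPM in every library. Single markers moved within that sum. Of the 5, 3 were lower and none higher with TEV, where 24.6% of all genes were lower and 25.1% higher. With TEV plus reserpine 3 were lower and 1 higher than with vehicle, where 19.9% of all genes were lower and 19.1% higher. Fibroblast markers summed to 3245 and 2812 CPM with vehicle, to 55.2 and 64.5 with TEV and to 96.4 and 77.5 with TEV plus reserpine. Pericyte and smooth muscle markers went from 2024 and 2001 CPM to 782 and 891 and to 933 and 854, in the same order. Most of that sum in both vesicle groups was Tagln, named after its values were seen. Tagln was at 824 and 846 CPM with vehicle, 648 and 719 with TEV, and 719 and 659 with TEV plus reserpine. Of the fibroblast markers 8 of 10 were tested and all 8 fell with TEV, as did all 10 pericyte markers. In TEV plus reserpine against TEV, 3 of these 8 and 3 of these 10 were higher and none lower. Of all genes 15.7% were higher and 16.0% lower there. Of the macrophage markers 8 were tested, and 5 were lower and 1 higher with TEV, and of the 5 mesothelial markers 4 were lower and 1 higher. Macrophage markers summed to 49.7 and 61.2 CPM with vehicle and to 22.5 and 21.9 with TEV. Tcf21 had no count in either vesicle group, nor had Cspg4, and Lum, Dpt and Mfap4 had none with TEV plus reserpine. Nothing in the labels tells whether libraries of a group were separate cultures, so p-values measure the spread between these libraries, which may be technical.

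**Figure D1:**
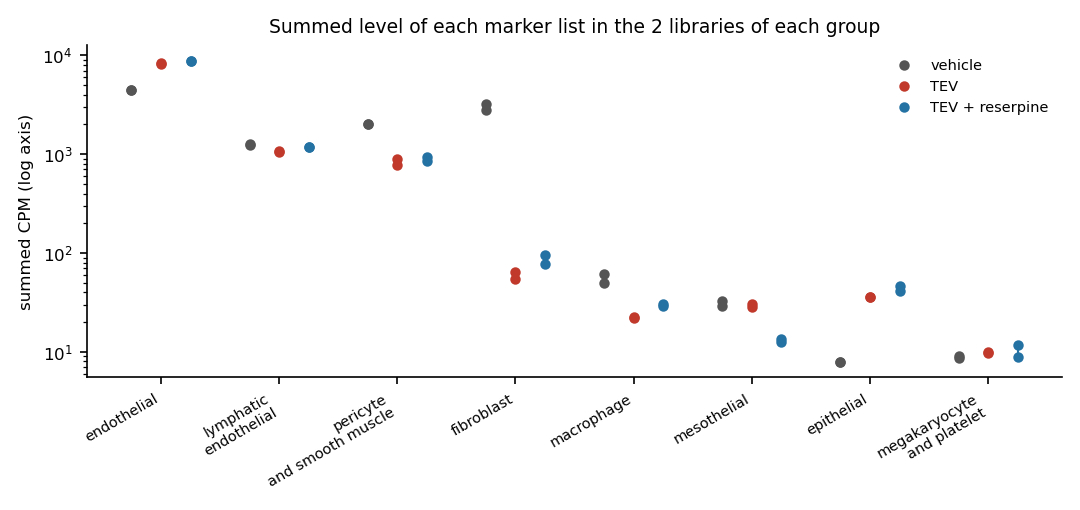
Summed CPM (log axis) of the markers of each cell type in the 2 libraries of each group, each point being 1 library. The endothelial sum was lowest with vehicle (4482 and 4445 CPM), and the fibroblast sum was highest there (3245 and 2812 CPM).

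All 9 members changed with vesicles by edgeR's quasi-likelihood test, 4 upward and 5 downward, where 49.7% of all genes tested were called, 25.1% higher and 24.6% lower. Plat, Procr, Pros1 and Plaur rose, and F3, Vwf, Thbd, Plau and Tfpi fell. The log2 changes ran from -3.94 (F3) to 3.42 (Plat), with a list median of -0.41 beside 0.01 for all genes. With reserpine added, 7 of the 9 differed from TEV, 5 higher and 2 lower, where 31.6% of genes were called (15.7% higher and 16.0% lower). Against vehicle 6 of the 9 still differed, 3 in each direction, where 39.1% of genes were called (19.1% higher and 19.9% lower). The libraries of the groups compared did not overlap for 9, 8 and 9 of the 9 members in the 3 comparisons, beside 78.9%, 70.7% and 73.5% of all genes, so a lack of overlap was common. The first and second of these comparisons share the TEV libraries, and the first and the third share the vehicle libraries.

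**Figure D2:**
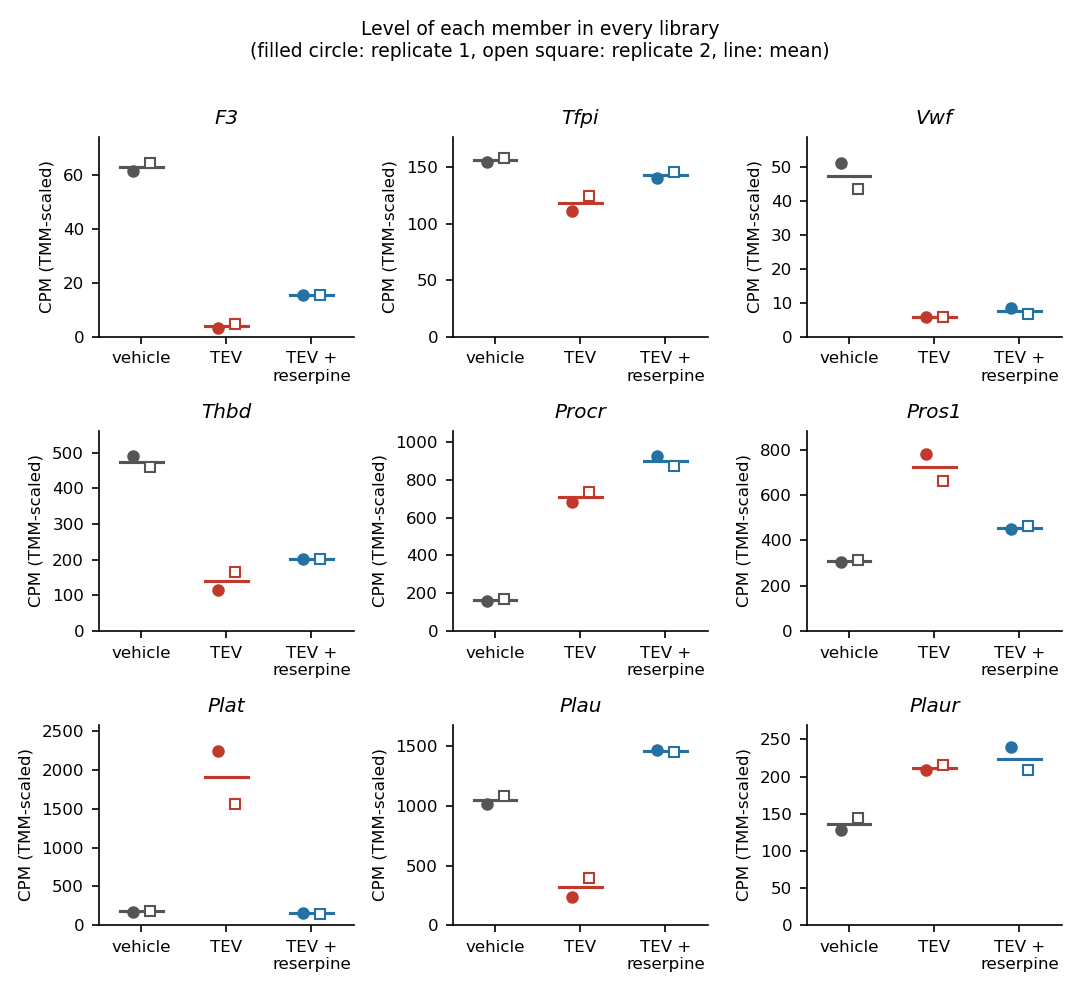
CPM (TMM-scaled, linear axis from 0) of each member in every library, with the group mean as a line. Plat is high in the TEV libraries alone (2245 and 1568 CPM), Plau is lowest there (239 and 393 CPM), and Vwf and F3 are highest with vehicle.

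F3, the initiator, stood at 61.3 and 64.2 CPM with vehicle, at 3.22 and 4.79 with TEV and at 15.4 and 15.6 with TEV plus reserpine. The 3 groups did not overlap, and both reserpine libraries lay between the others. F3 was 15.4-fold lower with TEV than with vehicle (log2 change -3.94 ± 0.19 SE, edgeR adjusted p = 1.97e-05). It was 3.79-fold higher with TEV plus reserpine than with TEV (1.92 ± 0.18 SE, edgeR adjusted p = 0.00106), and still 4.06-fold lower than with vehicle (-2.02 ± 0.17 SE, edgeR adjusted p = 0.000266). F3 had the largest decrease of the 9 members with vesicles and ranked 488 from the lowest of 15035 genes. Fibroblast and pericyte markers also fell with TEV, and their part in the change of F3, or of the other members, was not tested.

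Tfpi, the inhibitor that acts on the tissue factor complex, moved little. Its levels were 155 and 159 CPM with vehicle, 111 and 125 with TEV, and 140.4 and 146 with TEV plus reserpine. The TEV libraries were below the other 4, with a log2 change of -0.41 ± 0.08 (SE) against vehicle (edgeR adjusted p = 0.00684). With TEV plus reserpine Tfpi was 1.21-fold higher than with TEV (0.28 ± 0.08 SE, edgeR adjusted p = 0.0437), a call that ended in 8 of 15 alternative settings (adjusted p up to 0.197, without TEV replicate 1). Against vehicle it was not called (-0.13, 95% interval -0.33 to 0.07, edgeR adjusted p = 0.266). The counts of Tfpi were 2.53 and 2.47 times those of F3 with vehicle, 34.5 and 26.0 times with TEV and 9.14 and 9.39 times with TEV plus reserpine.

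Vwf, the platelet-binding multimer of Weibel-Palade bodies, was measured at 51.3 and 43.4 CPM with vehicle, 5.77 and 5.88 with TEV, and 8.44 and 6.63 with TEV plus reserpine. The fall with TEV was 8.12-fold (log2 change -3.02 ± 0.16 SE, edgeR adjusted p = 2.82e-05). TEV plus reserpine was 6.32-fold below vehicle (-2.66 ± 0.16 SE, edgeR adjusted p = 8.02e-05). Both vesicle groups were low and lay close together, and between them Vwf was not called (log2 difference 0.36, 95% interval -0.02 to 0.74, edgeR adjusted p = 0.128). The endothelial marker sum was higher in these same 4 libraries, although 3 of its 10 markers fell with TEV as Vwf did. Against vehicle, 8 of the 10 were higher and none lower with TEV plus reserpine, beside 19.1% and 19.9% of all genes. Markers of megakaryocytes, which also make this protein, summed to 8.73 to 11.8 CPM in every library. Of the 7 tested, 2 were lower and none higher with TEV, so 28.6% were called beside 49.7% of all genes. With TEV plus reserpine 2 were lower and 1 higher than with vehicle (42.9% called, beside 39.1% of all genes). Most fibroblast, pericyte, macrophage and mesothelial markers tested fell with TEV beside Vwf, and their part in its change was not tested. In bulk RNA, fewer cells of a type and less RNA per cell cannot be told apart.

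Among the protein C pathway members, Thbd fell while Procr and Pros1 rose. Thbd, the thrombin receptor of the pathway, was at 492 and 459 CPM with vehicle, 114 and 164 with TEV, and 203 and 202 with TEV plus reserpine. Both vesicle groups were below vehicle, 3.42-fold with TEV (log2 change -1.77 ± 0.16 SE, edgeR adjusted p = 0.000247) and 2.35-fold with TEV plus reserpine (-1.23 ± 0.16 SE, edgeR adjusted p = 0.00162). The step from TEV to TEV plus reserpine (0.54 ± 0.16 SE, edgeR adjusted p = 0.0426) was lost in 7 of 15 alternative settings. Without TEV replicate 1 it fell to 0.30 (edgeR adjusted p = 0.0816), and without replicate 1 of TEV plus reserpine its adjusted p was 0.139.

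Procr, the receptor that presents protein C, stood at 157 and 170.4 CPM with vehicle, 682 and 735 with TEV, and 926 and 876 with TEV plus reserpine. All 4 vesicle libraries were far above vehicle. The rise was 4.33-fold with TEV (log2 change 2.12 ± 0.08 SE, edgeR adjusted p = 1.07e-05) and 5.51-fold with TEV plus reserpine (2.46 ± 0.09 SE, edgeR adjusted p = 1.07e-05). Between the vesicle groups Procr was 1.27-fold higher with reserpine (0.35 ± 0.08 SE, edgeR adjusted p = 0.0201), a call lost without TEV replicate 1 (edgeR adjusted p = 0.103) and without either library of TEV plus reserpine (0.0919 and 0.0535). Counts of Procr were 0.318 and 0.371 of those of Thbd with vehicle, 5.98 and 4.48 times with TEV, and 4.56 and 4.34 times with TEV plus reserpine.

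Pros1, the cofactor of activated protein C and also a ligand of TAM receptors, was at 304 and 313 CPM with vehicle, 779.7 and 664 with TEV, and 450.2 and 462 with TEV plus reserpine. The order of the 3 groups was the same in both libraries of each, with no overlap. Pros1 rose 2.34-fold with TEV (log2 change 1.23 ± 0.09 SE, edgeR adjusted p = 0.000112). It was 1.58-fold lower with TEV plus reserpine than with TEV (-0.66 ± 0.09 SE, edgeR adjusted p = 0.00370) and 1.48-fold higher than with vehicle (0.57 ± 0.09 SE, edgeR adjusted p = 0.00382).

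The plasminogen activators moved in opposite directions. Plat, tissue-type plasminogen activator, was at 173 and 183 CPM with vehicle, 2245 and 1568 with TEV, and 153 and 148 with TEV plus reserpine. Only the TEV libraries were high. Plat rose 10.7-fold with TEV (log2 change 3.42 ± 0.17 SE, edgeR adjusted p = 2.37e-05) and was 12.7-fold lower with TEV plus reserpine than with TEV (-3.66 ± 0.17 SE, edgeR adjusted p = 0.000221). Against vehicle, TEV plus reserpine did not pass the test (-0.24, 95% interval -0.62 to 0.14, edgeR adjusted p = 0.270). By mean CPM Plat ranked 1070 of 15035 genes with vehicle, 35 with TEV and 1418 with TEV plus reserpine.

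Plau, urokinase, was at 1019 and 1084 CPM with vehicle, 239 and 393 with TEV, and 1467 and 1451 with TEV plus reserpine. Here only the TEV libraries were low. Plau fell 3.32-fold with TEV (log2 change -1.73 ± 0.21 SE, edgeR adjusted p = 0.000766) and was 4.61-fold higher with TEV plus reserpine than with TEV (2.20 ± 0.21 SE, edgeR adjusted p = 0.00115). TEV plus reserpine lay above both vehicle libraries, but the difference was not called (0.47, 95% interval -0.02 to 0.96, edgeR adjusted p = 0.113). This difference stayed uncalled in 10 of 15 alternative settings. It was called with DESeq2 (adjusted p = 0.0447), without a filter on low counts (edgeR, 0.0421), with the 4 libraries of these groups alone (0.00321) and without TEV replicate 1 (0.00325) or 2 (0.00330). Fibroblast markers summed to 3245 and 2812 CPM with vehicle, 55.2 and 64.5 with TEV and 96.4 and 77.5 with TEV plus reserpine. Their sum was thus highest with vehicle, whereas Plau was highest with TEV plus reserpine. The part of these cells in the changes of Plau was not tested.

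Within a library, the ratio of both activators needs no scaling between libraries. Plau had 5.90 and 5.93 times the counts of Plat with vehicle. With TEV it had 0.107 and 0.251 times, so that Plat was the more counted of the pair in both libraries. With TEV plus reserpine it had 9.60 and 9.81 times. Plat made up 6.80% and 6.98% of all counts of the 9 members with vehicle, 51.2% and 40.5% with TEV, and 4.24% and 4.21% with TEV plus reserpine. For Plau these shares were 40.1% and 41.4%, 5.46% and 10.1%, and 40.7% and 41.3%.

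**Figure D3:**
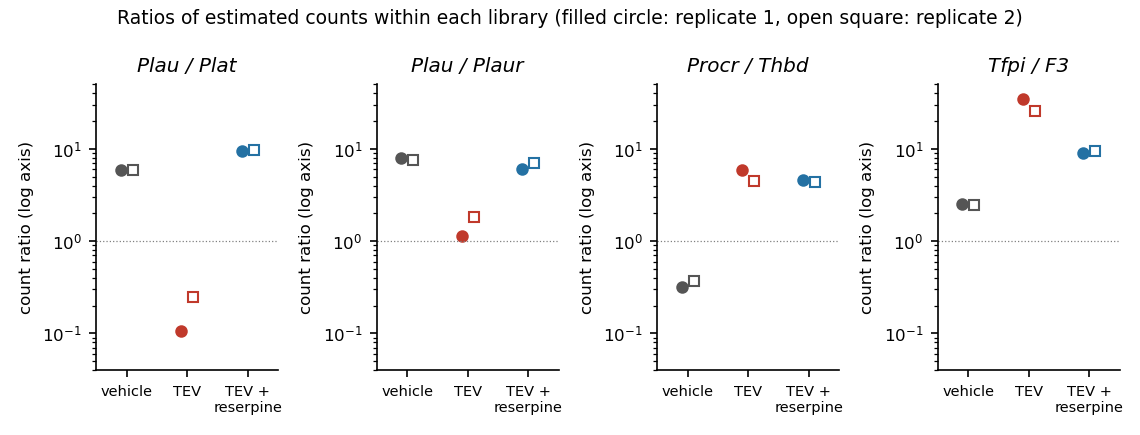
Ratios of estimated counts of gene pairs within each library, on a log axis, with a dotted line at equal counts. Plau to Plat crosses that line in the TEV libraries (0.107 and 0.251), and Procr to Thbd crosses it in all 4 vesicle libraries.

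Plaur, the urokinase receptor, was at 128 and 144 CPM with vehicle, 208 and 216 with TEV, and 239 and 209 with TEV plus reserpine. Both vesicle groups were above vehicle and overlapped each other. The rise was 1.56-fold with TEV (log2 change 0.64 ± 0.10 SE, edgeR adjusted p = 0.00217) and 1.65-fold with TEV plus reserpine (0.72 ± 0.10 SE, edgeR adjusted p = 0.00202). Between the vesicle groups the log2 difference was 0.08 (95% interval -0.16 to 0.32, edgeR adjusted p = 0.578). Plau had 7.98 and 7.53 times the counts of its receptor with vehicle, 1.15 and 1.82 times with TEV, and 6.13 and 6.95 times with TEV plus reserpine.

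**Figure D4:**
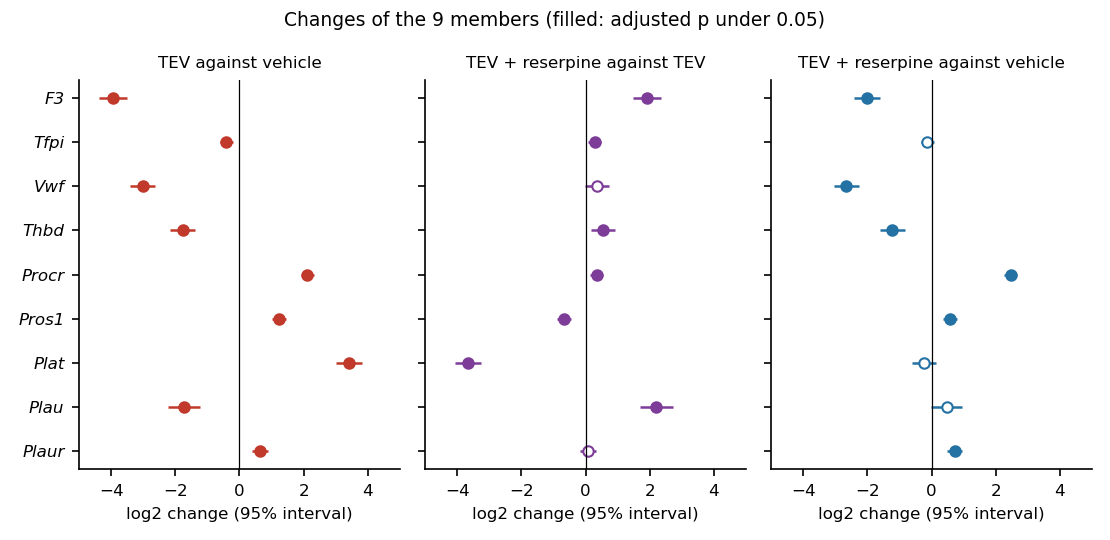
Log2 change of each member in the 3 comparisons, with 95% intervals from the edgeR fit of all 6 libraries and filled points for an adjusted p under 0.05. In the first and second panels 7 of the 9 members lie on opposite sides of 0, Vwf among them without a call in the second, and Procr and Plaur lie on the same side.

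In 7 of the 9 members TEV replicate 1 lay further from vehicle than TEV replicate 2, the deeper library, and in Procr and Plaur replicate 2 did. All 9 calls of TEV against vehicle held in each of the 15 alternative settings, these libraries left out in turn among them.

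Levels of different genes were compared as CPM per kb of the longest coding transcript in GENCODE M21, a scale that is approximate because no source used here names the authors' annotation. On this scale the order of the means with vehicle was Plau (449), Thbd (128), Procr (102), Pros1 (93.3), Plaur (90.2), Plat (70.4), Tfpi (39.5), F3 (33.5) and Vwf (5.36). Neighbours in that order were separated in both libraries except Pros1 and Plaur, whose ranges overlapped. With TEV the order became Plat (755), Procr (444), Pros1 (219), Plaur (141), Plau (135), Thbd (37.3), Tfpi (29.7), F3 (2.14) and Vwf (0.660). There Plaur and Plau overlapped, as did Thbd and Tfpi. With TEV plus reserpine Plau led again (623), followed by Procr (564), Plaur (149), Pros1 (138), Plat (59.6), Thbd (54.4), Tfpi (36.1), F3 (8.26) and Vwf (0.853). In that group Plaur and Pros1 overlapped.

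The clotting factors themselves were mostly near 0. Of 16 genes for coagulation factors and fibrinogen, 2 passed the filter on low counts, and the fibrinogen genes Fga, Fgb and Fgg had no count in any library. F8, the factor VIII that Vwf carries, was at 7.25 and 7.17 CPM with vehicle, 28.3 and 27.5 with TEV, and 16.7 and 19.5 with TEV plus reserpine. F8 rose with TEV (log2 change 1.95) while Vwf fell, and TEV plus reserpine was above vehicle (1.33) and below TEV (-0.62, edgeR adjusted p = 0.0116, lost when the first library of either vesicle group was left out, at 0.0547 and 0.0593). F5, factor V, went the other way and fell with TEV (log2 change -0.77, edgeR adjusted p = 0.00721). Of 6 genes of the vitamin K cycle and factor secretion, 1 was higher and 1 lower with TEV, beside 25.1% and 24.6% of all genes. Furin, the protease that matures the Vwf precursor, was at 264 and 269 CPM with vehicle, 488 and 389 with TEV, and 224 and 195 with TEV plus reserpine (log2 change 0.72 with TEV, and -1.07 from there to TEV plus reserpine).

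Of 10 further anticoagulant genes 5 were tested, and 4 of them were higher and none lower with TEV, where 25.1% of all genes were higher and 24.6% lower (median log2 change 2.47, beside 0.01 for all genes). Proc, the protein C gene, had no count in any library. Tfpi2, a relative of Tfpi that inhibits plasmin among other proteases, was at 49.4 and 59.9 CPM with vehicle, 693 and 582 with TEV, and 152 and 159.5 with TEV plus reserpine. Its log2 change was 3.55 with TEV, and it was lower with TEV plus reserpine than with TEV (-2.03) and higher than with vehicle (1.51). Hs3st1, the sulfotransferase that makes antithrombin-binding heparan sulfate, was at 16.1 and 11.5 CPM with vehicle, 108 and 78.3 with TEV, and 13.9 and 16.2 with TEV plus reserpine. Its log2 change was 2.74 with TEV and -2.62 from there to TEV plus reserpine. Serpinc1, antithrombin, rose from 0.859 and 0.905 CPM to 6.08 and 3.73 with TEV (log2 change 2.47, edgeR adjusted p = 0.0093). In TEV plus reserpine against TEV, 3 of the 5 were lower and none higher, where 16.0% of all genes were lower and 15.7% higher.

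Thrombin signals through protease-activated receptors. F2r, the main thrombin receptor, was at 444 and 395 CPM with vehicle, 225 and 227 with TEV, and 275 and 282 with TEV plus reserpine. It fell with TEV (log2 change -0.89, edgeR adjusted p = 0.000243). F2rl1, a receptor cut by trypsin-like proteases and the tissue factor complex, was at 14.9 and 14.8 CPM with vehicle, 67.4 and 59.1 with TEV, and 17.9 and 17.1 with TEV plus reserpine. Its log2 change was 2.09 with TEV and -1.85 in TEV plus reserpine against TEV. The other 2 receptors were not called with TEV.

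Pros1 and Gas6 are ligands of the TAM receptor kinases. Mertk, 1 of these receptors, was at 74.0 and 63.3 CPM with vehicle, 578 and 508 with TEV, and 252 and 263 with TEV plus reserpine (log2 changes 2.98, -1.08 and 1.91 in the order of the comparisons). Axl, another, went down from 941 and 858 CPM to 460 and 483 with TEV (-0.93) and to 344 and 357 with TEV plus reserpine. Gas6 rose with TEV (0.76, edgeR adjusted p = 0.00126). Of these 4 genes, 2 were higher and 1 lower with TEV, beside 25.1% and 24.6% of all genes.

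Plg, plasminogen itself, had 1.01 estimated counts in 1 vehicle library, none in the other 5, and was not tested. Of 15 partners of the plasminogen system 13 were tested, and 3 were higher and 6 lower with TEV, beside 25.1% and 24.6% of all genes. Plgrkt, a plasminogen receptor, was not called in any comparison (log2 differences 0.24, -0.11 and 0.13).

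The largest decreases of the list were in endocytic receptors. Lrp1, which clears activators bound to their inhibitors, was at 1542 and 1378 CPM with vehicle, 25.1 and 22.3 with TEV, and 39.1 and 20.2 with TEV plus reserpine. Mrc2, a collagen receptor that associates with the urokinase receptor, was at 309 and 268 CPM with vehicle, 4.03 and 5.08 with TEV, and 6.03 and 5.48 with TEV plus reserpine. Both genes are strongly made by fibroblasts, and both were lower in each vesicle group than with vehicle, as was the fibroblast marker sum. Among the vesicle libraries Lrp1 did not keep the order of that sum. The part of those cells in the change was not tested. Vldlr, a relative of Lrp1, fell from 109 and 95.2 to 13.9 and 20.6 CPM with TEV and stood at 47.0 and 55.3 with TEV plus reserpine. Serpinb2, an inhibitor of urokinase, fell with TEV to 1.55 and 1.86 CPM (log2 change -3.40, edgeR adjusted p = 0.000521).

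Of 11 genes of Weibel-Palade bodies, the stores of Vwf, 6 were higher and 1 lower with TEV, so 63.6% were called beside 49.7% of all genes (median log2 change 0.55, beside 0.01 for all genes). Their cargo genes Selp and Angpt2 thus moved against Vwf. Selp, the P-selectin gene, was at 111 and 185 CPM with vehicle, 504 and 658 with TEV, and 836 and 728 with TEV plus reserpine. Angpt2, the ligand of Tie2 stored with it, was at 298 and 333, 2309 and 2109, and 1211 and 1197 CPM. Rab27a, a GTPase on these granules, was at 1.09 and 1.04, 7.52 and 8.31, and 6.34 and 6.09 CPM. In TEV plus reserpine against TEV, 1 of the 11 was higher and 4 were lower, where 15.7% of all genes were higher and 16.0% lower.

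Endothelium also restrains platelets through enzymes of its surface and cytoplasm. Entpd1, which degrades ATP and ADP, was at 49.7 and 46.4 CPM with vehicle, 132 and 148 with TEV, and 207 and 192 with TEV plus reserpine. Nt5e, which makes adenosine from AMP, fell with TEV where Entpd1 rose, and both were higher with TEV plus reserpine than with TEV. That last call of Nt5e (log2 change 0.78) was lost without replicate 1 of TEV (0.64) or of TEV plus reserpine (0.71). Nt5e was at 17.6 and 16.9, 3.41 and 4.18, and 6.92 and 6.20 CPM. Nos3, endothelial nitric oxide synthase, was at 123 and 118, 282 and 336, and 361 and 327 CPM. Of these 4 genes, 2 were higher and 1 lower with TEV (25.1% and 24.6% of all genes), and Ptgis was not called.

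**Figure D5:**
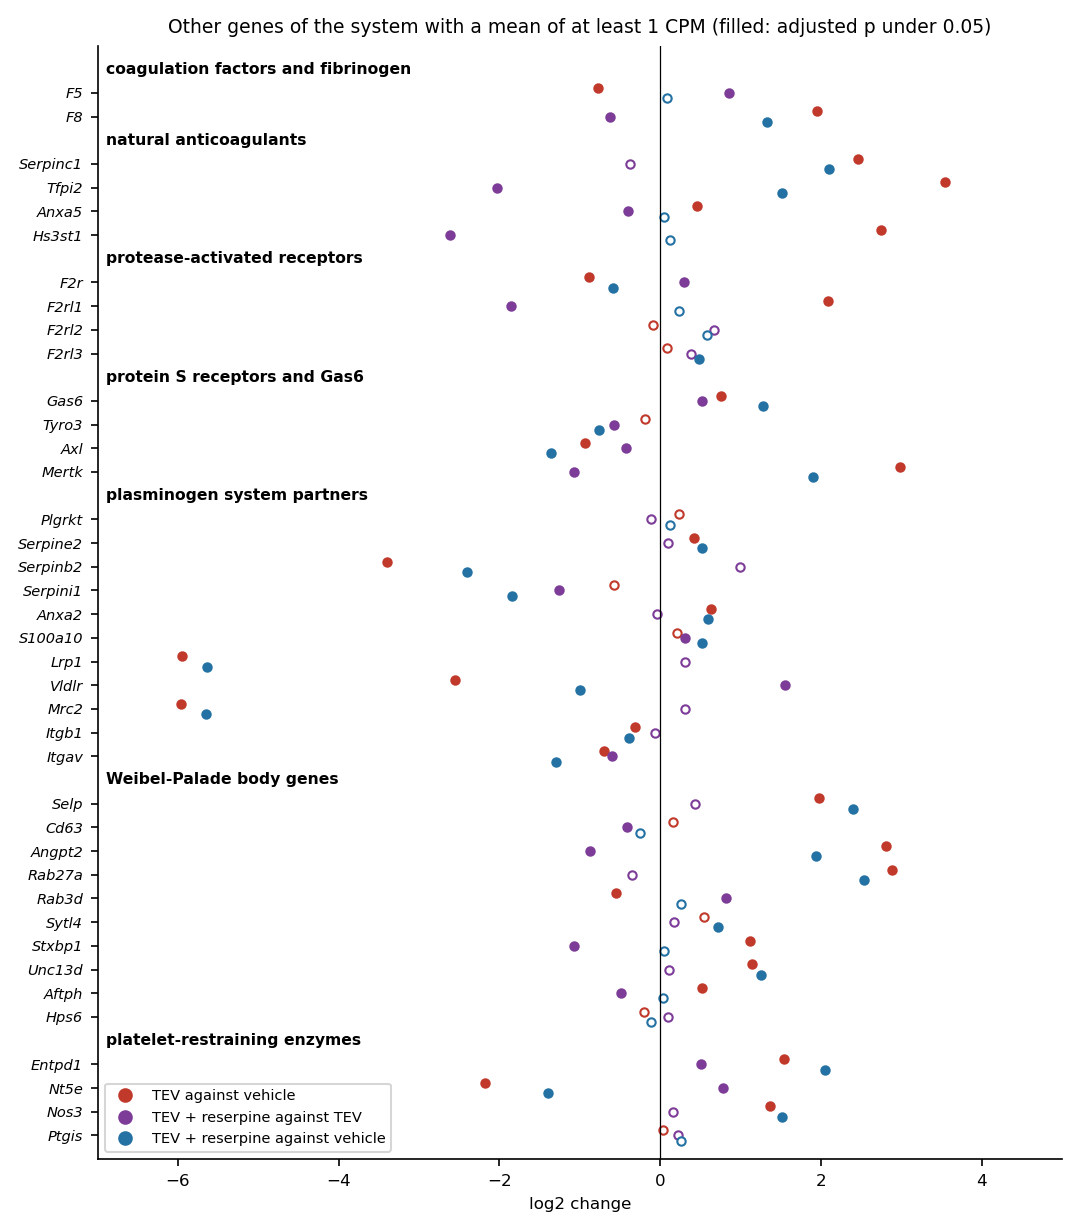
Log2 change of other genes of the system that averaged 1 CPM or more, grouped by role, in the 3 comparisons, with filled points for an adjusted p under 0.05. Tfpi2, Hs3st1 and F2rl1 lie right of 0 with TEV and left of 0 in TEV plus reserpine against TEV, and Lrp1 and Mrc2 lie furthest to the left.

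For each member the genes most like it in pattern were those with the smallest root mean square difference of log2 CPM, each gene centred on its mean over the 6 libraries, among 10430 other genes averaging 5 CPM or more. Nearest to Plat was Nadk2, a mitochondrial NAD kinase (0.12), the one gene within 0.2, and next Loxl4 (0.21). Nearest to Plau were Clec14a, an endothelial surface lectin (0.10), and Scn3b (0.12), with 10 genes within 0.2. F3 had 3 genes within 0.2, led by Upk1b (0.13) and Gm2115 (0.16). Vwf had 14, led by Bgn, a proteoglycan of connective tissue matrix (0.07), and Nbl1 (0.08). Procr had 16, led by Clca2 (0.09) and Rhbdl2 (0.11), and Thbd had 62, led by Pcdhga7 (0.11), whose reads can be shared within its gene cluster, and Akna (0.11). Members that moved less than these with TEV had more neighbours. There were 302 for Pros1 (Sft2d2 and Slc25a20 nearest), 1006 for Plaur (Ppp1r11 and Tubb6) and 2067 for Tfpi (Cyp20a1 and Prkce). These distances describe 6 libraries in 3 groups and carry no test.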

How the data were processed

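RNA was measured by sequencing polyA libraries as 75 bp single-end reads, per the labels' protocols. Per the submitters' processing notes, kallisto 0.45.0 and R 4.0.0 with edgeR and limma were used, and the build named is human GRCh38 although the symbols are those of mouse genes. The authors deposited a table of 30055 symbols with estimated counts (99.9% of values above 0 are not whole within 1e-06) and a filtered table of 13098 symbols with the same values, so the raw table alone was used. Groups and replicate numbers follow the sample titles, although the series text can be read as giving reserpine to all cells. No source used here states strand, and no GENCODE M21 gene overlaps a member.

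Estimated counts were rounded, filtered by filterByExpr, which left 15035 genes, and scaled by TMM. All 6 libraries entered 1 edgeR quasi-likelihood model (3 residual degrees of freedom), with Benjamini-Hochberg adjustment over all genes and a call at an adjusted p under 0.05. SE is the log2 change over the root of the F statistic. Means and CPM were computed from the same counts. Software was edgeR 4.0.16 and, for alternatives, DESeq2 1.42.0 and limma 3.58.1, under R 4.3.3. The fit was tested on simulated data. Alternatives were other scalings, filters and tools, thinning to the smallest library, a replicate block and leaving out each library. Members, lists and motifs were chosen with earlier results of these data known. Named were the 9 members, up to 3 called genes a list and comparison with the largest change and a mean of at least 1 CPM, Plg, Plgrkt, F2r, Proc and Mertk, markers at 0, and the 2 nearest genes in pattern. 1 further gene that the rule names is not reported here. Fibrinogen genes and Ptgis were named after their values were seen.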

Additional observations from a re-analysis of the deposited data

How the results depend on the processing

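Over 15 alternative settings no called member changed sign. All 9 calls of TEV against vehicle and all 6 of TEV plus reserpine against vehicle were kept in each, whereas in TEV plus reserpine against TEV those of F3, Plat, Plau and Pros1 were kept and those of Thbd, Procr and Tfpi were not. With a library left out in turn, this comparison called 4 to 7 members (4 without TEV replicate 1 or without either library of TEV plus reserpine) and 2124 to 4315 genes, and TEV plus reserpine against vehicle called 3572 to 5950 genes. The uncalled difference of Plaur between the vesicle groups ran from -0.017 (without replicate 1 of TEV plus reserpine) to 0.18 with a library left out. A replicate block by title number gave 9, 5 and 6 members and 6864, 3840 and 5094 genes in the 3 comparisons. Between libraries of the same title number the correlations of deviations were 0.00, -0.05 and -0.05. The deposited column names number the vehicle libraries 1 and 2 but those of both vesicle groups 2 and 3. Pairing by column number was not tested. With library size as the sole scaling, the median over all genes for TEV against vehicle was -0.11 rather than 0.01, and 39.8% rather than 50.5% of calls were upward. Precision is limited by 2 libraries a group.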

Other observations

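Of 8 transcription factors known to act on members, 4 were higher and 3 lower with TEV, so 87.5% were called beside 49.7% of all genes, and Ets1, named after its values were seen, was called in no comparison. Gata2, a regulator of endothelial genes, was at 23.9 and 24.6 CPM with vehicle, 129 and 119 with TEV, and 75.4 and 65.9 with TEV plus reserpine, and Erg, an ETS factor of endothelium, rose with TEV (log2 change 1.26, edgeR adjusted p = 0.000569). Egr1, an early growth response factor, was at 87.7 and 88.2 CPM with vehicle, 46.2 and 44.2 with TEV, and 95.4 and 92.3 with TEV plus reserpine. It rose from TEV to TEV plus reserpine (log2 change 1.05, edgeR adjusted p = 0.000594). Fosl1, an AP-1 subunit, rose with TEV (log2 change 1.03, edgeR adjusted p = 0.00124). Klf2 and Klf4, shear-responsive factors, were both lower than with vehicle in each vesicle group. Their log2 changes were -0.77 and -0.63 with TEV and -0.70 and -1.37 with TEV plus reserpine. Between the vesicle groups Klf2 was not called (0.07, edgeR adjusted p = 0.724), and Klf4 was lower with reserpine (-0.74, edgeR adjusted p = 0.00338).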
